A study of Mus musculus with 12 samples.

Results

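The aminoacyl-tRNA synthetases are the 38 genes of the liver expression matrix whose symbol names such an enzyme, out of 56980 genes in all. Members were taken by symbol alone: a 1-letter amino acid code followed by "ars", with or without an ending, plus Ears2 and Eprs. The rule uses no measured value, but it was chosen with earlier results of these data known. Symbols ending in 2 were read as the mitochondrial enzymes, which gave 17 genes, and 20 were read as cytosolic. Tarsl2, a threonyl-tRNA synthetase gene beside Tars and Tars2, was kept apart. All 38 passed the filter on low counts that left 13768 genes to test.

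RNA of whole liver was sequenced from 12 ob/ob mice (strain B6.Cg-Lepob/J, genotype Lep-/-), which lack leptin and become obese. Both groups carry this defect, so neither is a lean control. Mice entered the study at the age of 8 weeks, ate freely, and received for 3 weeks a chow that drew 25% (standard protein diet, SPD) or 5% (low protein diet, LPD) of its kcal from protein. They were 11 weeks old at the end, with 6 mice per diet.

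The libraries held 19374676 to 23710930 counts, of which synthetase genes took 0.143% to 0.151% in SPD and 0.155% to 0.180% in LPD livers. The 10 genes with most counts took 20.6% to 22.8% and 14.99% to 17.3%. Hepatocyte markers fitted the labelled tissue, with Alb between 47803 and 71208 CPM (counts per 1e6 counts of the scaled library). For LPD replicate 1 the treatment and description labels name the 25% diet, against its title and library code, and it was kept in LPD. Along the first principal component of all genes LPD replicates 2 and 5, at 48.7 and 44.6, lay beyond the remaining LPD livers, at 15.3 to 22.5, while SPD livers were at -32.1 to -24.7. The SPD libraries carry SP1 (4) or SP2 (2) codes, those of LPD livers LP4 (4) or LP5 (2), and no code is common to both diets. If these codes mark batches, batch and diet cannot be told apart.

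Each aminoacyl-tRNA synthetase joins 1 kind of amino acid to its tRNA with the energy of ATP, the step that fixes the meaning of the genetic code. Cytosol and mitochondria use separate sets of enzymes, most of them from separate nuclear genes, and Gars and Kars make the enzymes of both compartments. When an amino acid runs short, uncharged tRNA activates the kinase GCN2 (gene Eif2ak4), translation of the transcription factor ATF4 rises, and ATF4 with C/EBP partners binds response elements in genes for amino acid synthesis, transport and tRNA charging. Many cytosolic synthetase genes are known ATF4 targets.

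Low protein feeding went with higher mRNA of 10 of the 20 cytosolic synthetases and lower mRNA of none, at an adjusted p under 0.05 by edgeR. By DESeq2 and by limma-voom 0 cytosolic members fell too, and by edgeR 0 were lower at an unadjusted p under 0.05. Of all tested genes 39.9% were called, 20.7% as higher and 19.2% as lower in LPD. The risen members were Eprs, Aars, Yars, Farsb, Tars, Sars, Iars, Mars1, Kars and Nars. Their median log2 fold change (LPD over SPD) was 0.32, or 1.25-fold, and that of all 2850 genes that rose was 0.35, or 1.27-fold. Over all 20 cytosolic members the median was 0.16, against a median of -0.00059 over all tested genes, and 17 of 20 estimates lay above 0. The 17 mitochondrial members had a median of -0.023, with 2 risen, 4 fallen and 11 not past the test. For 7 cytosolic members every LPD liver lay above every SPD liver, which held for 10.2% of all tested genes. In bulk tissue a change in the number of cells of a type and a change in RNA per cell cannot be told apart.

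**Figure D1:**
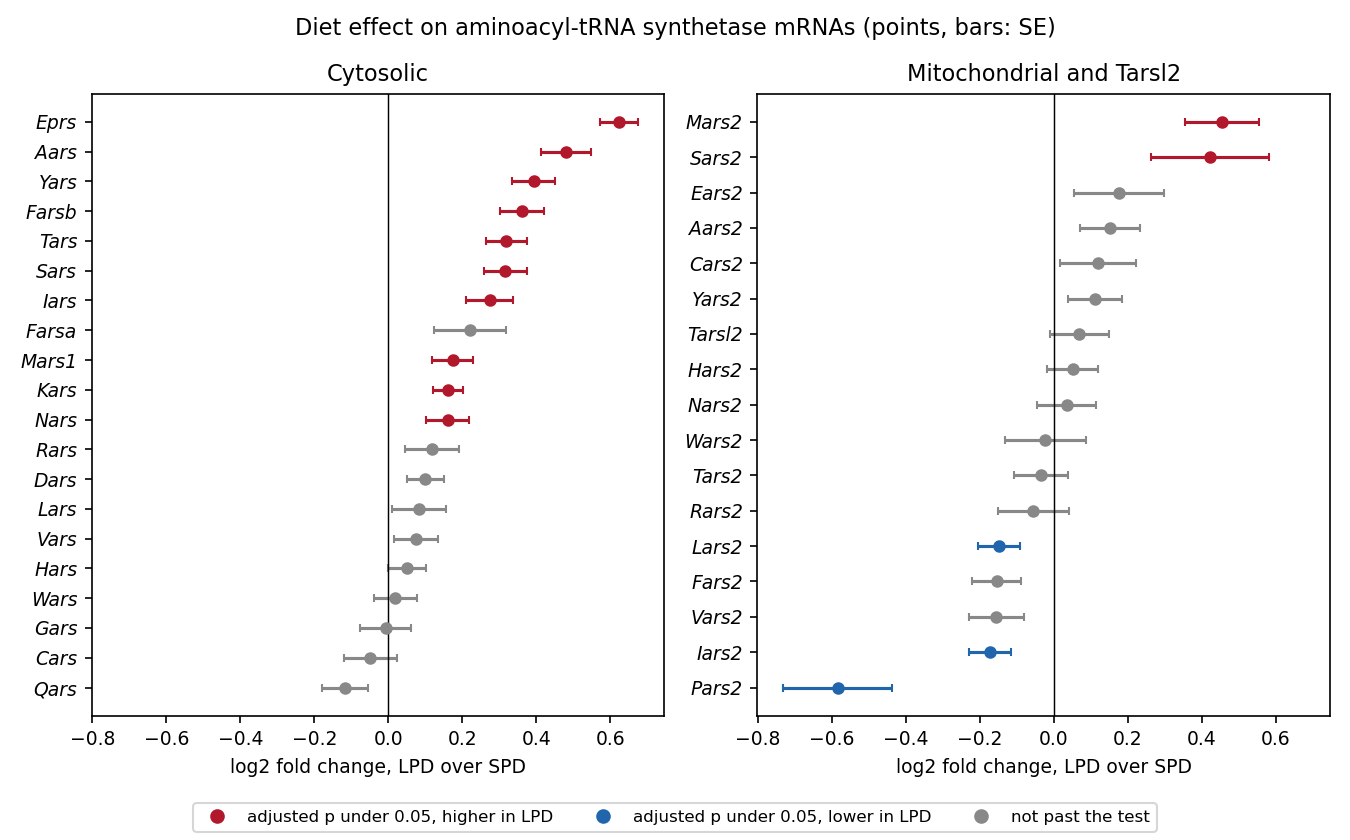
Log2 fold change of synthetase mRNAs, LPD over SPD, with its standard error (bars), for the 20 cytosolic genes (left) and for 16 mitochondrial genes with Tarsl2 (right). Red marks genes higher and blue genes lower in LPD at an adjusted p under 0.05, and no cytosolic gene is blue.

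The starts of 6 cytosolic genes are shown because ATF4 response elements are known from promoters of this family. RefSeq promoters (GRCm38.p6, 250 bases before to 50 bases after the start) were at hand for 28 members, and they were searched for TGATGNAA or, on the other strand, TTNCATCA, the core of the C/EBP-ATF element. A match lay in a promoter of 5 of 13 cytosolic and 0 of 14 mitochondrial genes, and of 1219 of 27025 genes in all (4.51%). Risen cytosolic members held it in 4 of 9 promoters (Aars, Iars, Tars and Yars) and those not past the test in 1 of 4 (Gars). The letters below run 5′ to 3′ on the gene's strand from 150 bases before to 30 bases after the start, with matches in capitals. The windows are chr8:111033692-111033871 (plus) for Aars, chr13:49681980-49682159 (plus) for Iars, chr15:11399629-11399808 (minus) for Tars, chr4:129189753-129189932 (plus) for Yars, chr6:55037851-55038030 (plus) for Gars and chr1:185362894-185363073 (plus) for Eprs.
Aars: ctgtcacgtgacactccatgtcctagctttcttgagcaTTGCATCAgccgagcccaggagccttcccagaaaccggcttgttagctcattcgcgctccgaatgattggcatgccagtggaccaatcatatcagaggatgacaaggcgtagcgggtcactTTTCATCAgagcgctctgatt
Iars: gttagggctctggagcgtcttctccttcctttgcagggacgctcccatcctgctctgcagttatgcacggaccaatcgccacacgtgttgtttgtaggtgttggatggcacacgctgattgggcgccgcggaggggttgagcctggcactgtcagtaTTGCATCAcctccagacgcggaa
Tars: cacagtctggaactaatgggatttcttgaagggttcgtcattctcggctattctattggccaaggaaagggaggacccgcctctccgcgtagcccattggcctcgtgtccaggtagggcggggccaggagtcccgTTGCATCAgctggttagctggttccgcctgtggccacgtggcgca
Yars: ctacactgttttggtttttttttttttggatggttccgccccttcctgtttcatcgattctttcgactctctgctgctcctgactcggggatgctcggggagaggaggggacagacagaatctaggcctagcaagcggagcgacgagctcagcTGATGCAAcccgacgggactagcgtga
Gars: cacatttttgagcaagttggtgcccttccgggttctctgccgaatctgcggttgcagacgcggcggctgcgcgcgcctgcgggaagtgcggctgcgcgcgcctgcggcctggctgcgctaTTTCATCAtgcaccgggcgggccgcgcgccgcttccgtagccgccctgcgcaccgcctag
Eprs: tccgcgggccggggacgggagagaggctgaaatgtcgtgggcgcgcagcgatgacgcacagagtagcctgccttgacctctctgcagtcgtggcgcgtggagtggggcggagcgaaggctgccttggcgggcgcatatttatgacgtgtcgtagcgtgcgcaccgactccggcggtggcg
Aars has 2 matches, at -112 and 10 bases from its start, and the others lie at 8 (Iars), -15 (Tars), 4 (Yars) and -30 (Gars). Yars holds TGATGCAA, read on its own strand, and the rest read as the other form. Eprs, the member with the largest fold change, has none of these letters in this window, and Gars, which has them, did not pass the test. A match is a description of the letters and not a measured binding site.

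Eprs encodes the glutamyl-prolyl-tRNA synthetase, 1 protein that charges 2 tRNAs and sits in the multi-synthetase complex. Its level in SPD livers was 83.3, 92.6 and 94.0 CPM (lowest, median and highest) and in LPD livers 128, 142 and 152 CPM. The lowest LPD liver stood far above the highest SPD liver, so the diets did not overlap. The rise was 1.54-fold (log2 fold change 0.62 ± 0.05 SE, adjusted p = 5.03e-07).

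Aars charges alanine, an amino acid that muscle exports to the liver. It measured 147, 153 and 162 CPM in SPD and 179.8, 214 and 241 CPM in LPD livers (lowest, median, highest). All LPD livers were above all SPD livers, and they spread more widely (SD 22.9 against 5.66 CPM). The rise was 1.40-fold (0.48 ± 0.07, adjusted p = 5.61e-05). In the annotation 14.3% of its exonic bases are shared with Exosc6 on the same strand, a gene that did not pass the filter on low counts.

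Yars, which charges tyrosine, lay at 31.1, 34.9 and 36.0 CPM in SPD and 41.0, 44.1 and 50.7 CPM in LPD livers, without overlap. It rose 1.31-fold (0.39 ± 0.06, adjusted p = 9.59e-05). Farsb encodes the beta subunit of the cytosolic phenylalanyl-tRNA synthetase, a tetramer of paired alpha and beta chains. Its levels were 27.3, 29.9 and 32.1 CPM in SPD and 35.5, 37.8 and 43.3 CPM in LPD livers. The diets did not overlap, and the rise was 1.28-fold (0.36 ± 0.06, adjusted p = 2.41e-04). Farsa, the alpha chain, was less abundant, at 10.1, 11.6 and 14.8 CPM in SPD and 12.2, 13.6 and 15.5 CPM in LPD. Its diets overlapped and its log2 fold change of 0.22 ± 0.10 did not pass (adjusted p = 0.083). Without SPD replicate 4, the adjusted p of Farsa was 0.0191. Whether the 2 chains differed in response was not tested.

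Tars and Sars charge the hydroxyl amino acids threonine and serine. Tars measured 68.8, 76.0 and 79.8 CPM in SPD and 84.7, 93.2 and 102 CPM in LPD livers, and Sars 66.9, 77.3 and 80.6 CPM against 84.7, 96.7 and 101 CPM. Neither overlapped between diets. Both rose 1.25-fold, Tars by 0.32 ± 0.06 (adjusted p = 3.56e-04) and Sars by 0.32 ± 0.06 (adjusted p = 6.22e-04) on the log2 scale. Tarsl2, which also encodes a threonyl-tRNA synthetase, was lower in level than Tars. It lay at 12.5 to 15.8 CPM in SPD and 12.3 to 15.8 CPM in LPD. Its log2 fold change was 0.07 ± 0.08 (adjusted p = 0.528).

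Iars, for isoleucine, and Mars1, for methionine, belong to the complex and overlapped between diets. Iars lay at 47.5, 50.4 and 58.2 CPM in SPD and 55.0, 61.8 and 67.8 CPM in LPD livers, and rose 1.21-fold (0.27 ± 0.06, adjusted p = 2.96e-03). Mars1 lay at 50.7, 52.4 and 59.4 CPM and at 53.6, 60.5 and 65.7 CPM, a 1.13-fold rise (0.17 ± 0.06, adjusted p = 0.0216). The highest SPD value of Mars1, from replicate 1, lay within the LPD range. Mars1 shares 68 exonic bases on the opposite strand with Ddit3, which also rose, and whether counting used strand is not given in the sources used here. For Mars1 the adjusted p was 0.0569 without LPD replicates 2 and 5, and 0.145 with the SP1 and LP4 codes alone. Iars has a near copy, the pseudogene Gm4849, alike over 1656 bases at 96.0% identity, with 0 counts in every library.

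Kars, the lysyl-tRNA synthetase of both compartments, changed little but evenly. SPD livers held 53.1, 54.9 and 57.0 CPM and LPD livers 58.8, 61.7 and 63.1 CPM, with no overlap. The rise was 1.12-fold (0.16 ± 0.04, adjusted p = 6.02e-03). If LPD replicate 1 was counted as SPD, as its treatment label has it, the adjusted p became 0.0711, and it was 0.0505 with the SP1 and LP4 codes alone.

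Nars, for asparagine, was the most abundant synthetase mRNA per length in SPD livers. Its values were 114, 125 and 132 CPM in SPD and 127, 139 and 152 CPM in LPD livers, which overlapped. It rose 1.12-fold (0.16 ± 0.06, adjusted p = 0.0377). This call was lost when any 1 of 7 livers was left out (SPD replicates 1, 2, 3 and 5 and LPD replicates 3, 4 and 6), with an adjusted p of 0.0597 to 0.0805.

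**Figure D2:**
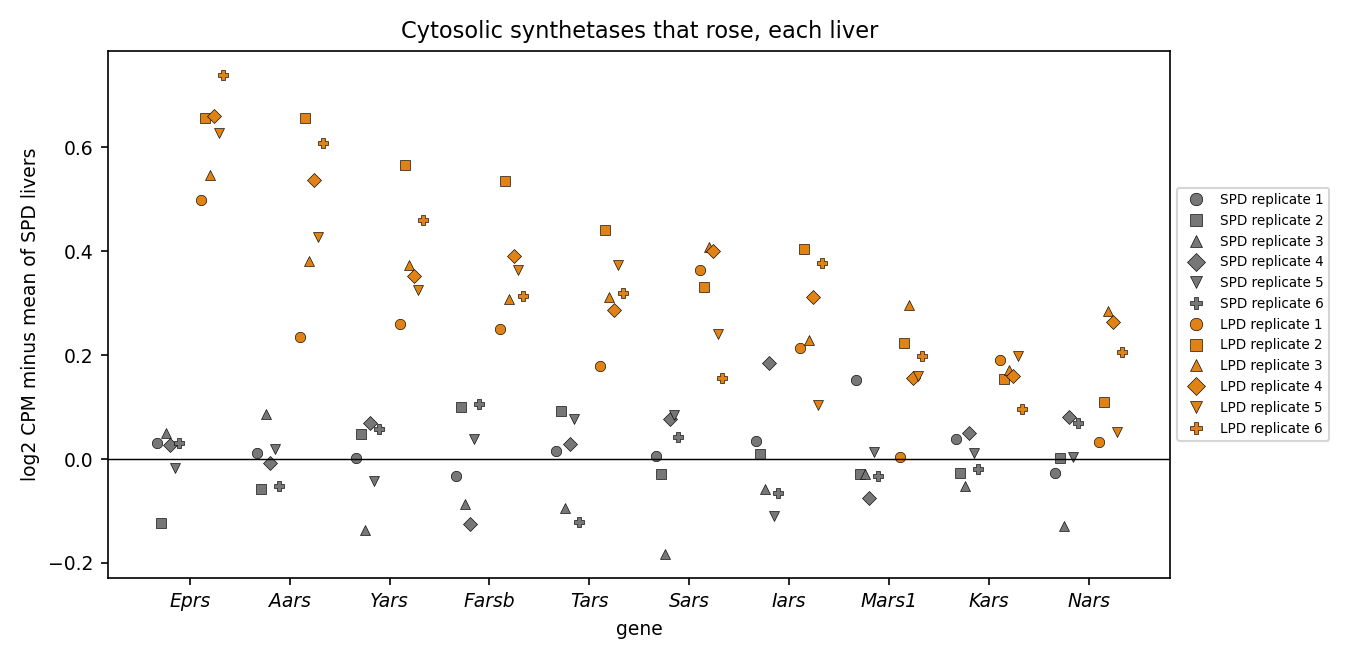
Log2 CPM of the 10 cytosolic synthetases that rose, each liver minus the mean of the SPD livers (grey SPD, orange LPD, symbols give the replicate). LPD replicate 1 (circles) is the lowest LPD liver for 7 of the 10 genes. The diets do not overlap for 7 of the 10, which were picked as risen in these same livers.

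The LPD livers differed in how far these 10 mRNAs stood above the SPD mean. LPD replicate 1, the liver with conflicting labels, was the lowest LPD liver for 7 of 10 and averaged 0.22 on the log2 scale above the SPD mean. LPD replicate 2 was the highest for 5 of 10 and averaged 0.41. The other 4 averaged 0.33, 0.35, 0.29 and 0.35 in the order of their numbers. LPD replicates 2 and 5, apart from the rest in all genes, did not go together here, at 0.41 and 0.29. LPD replicates 1 and 5 each exceeded every SPD liver for 8 of the 10 genes, and the other 4 did so for all 10. The genes were picked as risen in these same livers, so these counts are no added support for the rise. Without LPD replicates 2 and 5, 9 cytosolic members rose, and 10 did without LPD replicate 1.

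The other 10 cytosolic members did not pass the test, and their log2 fold changes lay between -0.12 and 0.22, with Farsa the highest. Qars, for glutamine, had the lowest, -0.12 ± 0.06 (adjusted p = 0.146), with 43.6 to 51.2 CPM in SPD and 38.8 to 49.0 CPM in LPD livers. Rars (arginine), Dars (aspartate), Lars (leucine), Vars (valine) and Hars (histidine) had estimates of 0.12, 0.10, 0.08, 0.08 and 0.05. Wars, for tryptophan, stood at 0.02 ± 0.06 and Cars, for cysteine, at -0.05 ± 0.07. Gars, for glycine in both compartments, stood at -0.01 ± 0.07, with a 95% confidence interval of -0.14 to 0.13. Its livers overlapped almost fully, at 57.7 to 71.3 CPM in SPD and 58.3 to 74.6 CPM in LPD.

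Among 13 cytosolic members that textbook accounts name as ATF4 targets, 8 rose and 5 did not pass (Cars, Gars, Lars, Vars and Wars), with a median of 0.17. Among the 7 others, 2 rose (Farsb and Kars), with a median of 0.12. Membership of the multi-synthetase complex split the members evenly, with 4 of 8 risen inside it (Eprs, Iars, Kars and Mars1) and 6 of 12 outside. By fold of the catalytic domain, 3 of 9 class I and 6 of 10 class II enzymes rose, and Eprs, which rose too, holds a domain of each class. Enzymes for amino acids that the diet must supply and those for the other amino acids both had 5 of 10 risen. Of all tested genes 20.7% rose, and differences between these groups were not tested.

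Summed over the 20 cytosolic genes, synthetase mRNA was 1126 ± 31.6 CPM in SPD and 1341 ± 58.2 CPM in LPD livers (mean ± SD, n = 6 each). The ranges, 1073 to 1165 and 1244 to 1399 CPM, did not overlap. The 17 mitochondrial genes summed to 345.5 ± 7.08 CPM in SPD and 327 ± 11.0 CPM in LPD, with ranges of 336 to 357 and 312 to 341 CPM that overlapped. Abundant genes weigh most in such sums. Mean levels in SPD and LPD were 124 and 110 CPM for Iars2, 153 and 213 CPM for Aars, and 90.8 and 140 CPM for Eprs. Of the mitochondrial estimates 8 lay above 0 and 9 below. Per kilobase of the deposited gene length, cytosolic mRNA was 4.03 ± 0.140 times the mitochondrial in SPD and 4.83 ± 0.256 times in LPD livers, with ranges of 3.78 to 4.17 and 4.48 to 5.18.

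**Figure D3:**
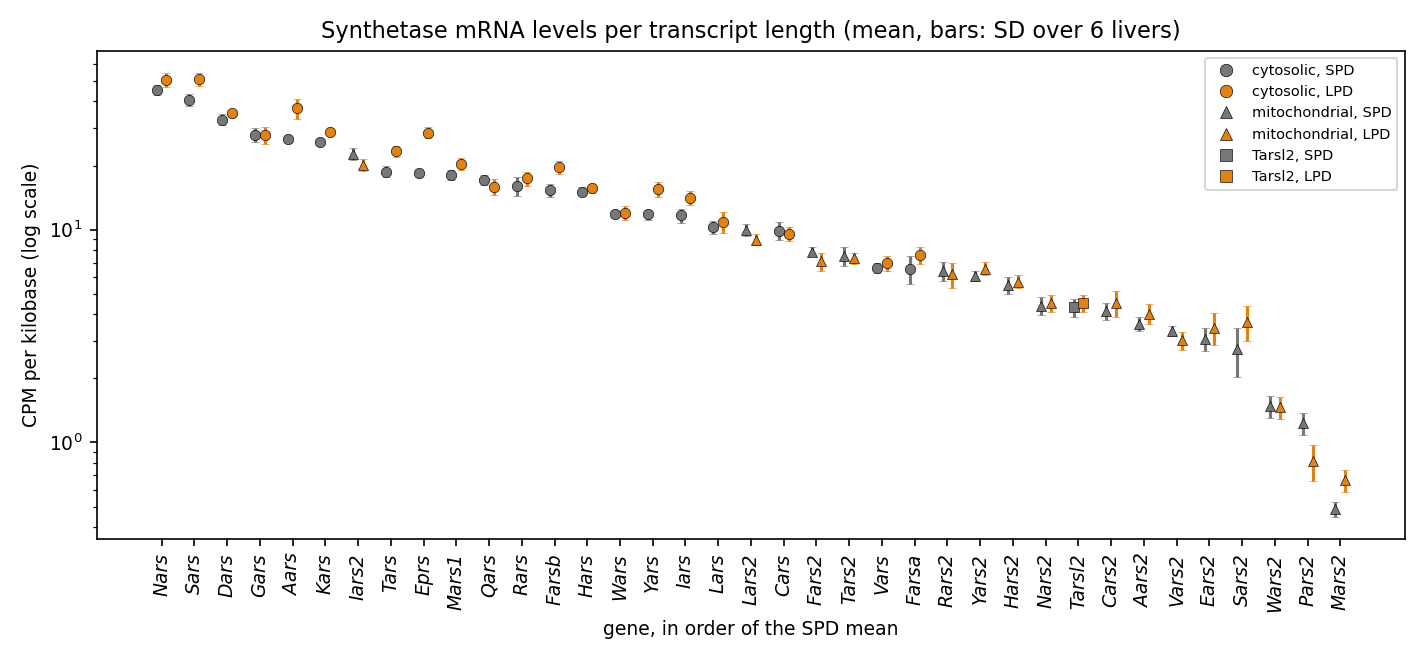
Level of synthetase mRNAs in CPM per kilobase on a log axis, mean of 6 livers with SD bars, in SPD (grey) and LPD (orange), ordered by the SPD mean. Cytosolic genes (circles) take most of the high end, from Nars at 45.3 in SPD, and mitochondrial genes (triangles) the low end, down to Mars2 at 0.486, while Iars2 stands among the cytosolic genes.

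Levels between genes are given per kilobase here. In SPD livers Nars led with 45.3 ± 2.36 CPM per kilobase, followed by Sars at 40.8 ± 2.71, Dars at 32.8 ± 1.90 and Gars at 27.98 ± 2.14. Gars, Aars at 26.6 ± 0.984 and Kars at 25.8 ± 0.713 lay within their spread of each other. In LPD livers Sars reached 50.8 ± 3.42, level with Nars at 50.7 ± 3.79. Aars, at 37.1 ± 3.97 in LPD, came next to Dars at 35.2 ± 1.47, and Eprs went from 18.5 ± 0.799 to 28.5 ± 1.70. All mitochondrial members other than Iars2 lay under 10 CPM per kilobase in both diets, and Iars2 had 22.7 ± 1.47 in SPD and 20.2 ± 1.31 in LPD livers.

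Mitochondrial synthetases charge the tRNAs that the mitochondrial genome encodes, for the translation of its few respiratory chain subunits. Pars2, the prolyl-tRNA synthetase of mitochondria, had the largest fold change of the mitochondrial members, while Mars2 had the lowest adjusted p. It held 3.27, 3.75 and 4.49 CPM in SPD and 1.66, 2.59 and 2.96 CPM in LPD livers, from 33 to 93 counts per library. Every LPD liver was below every SPD liver, which held for 9.73% of all tested genes. The fall was 1.50-fold (-0.58 ± 0.15, adjusted p = 5.43e-03). In the libraries coded SP1 and LP4 alone, 4 per diet, it was -0.61 with an adjusted p of 0.0512. Proline and isoleucine were the amino acids whose cytosolic enzyme rose and whose mitochondrial enzyme fell.

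Mars2, for mitochondrial methionine, rose 1.37-fold from 4.92, 5.48 and 6.07 CPM to 5.92, 7.74 and 8.61 CPM (0.45 ± 0.10, adjusted p = 2.25e-03). Its diets overlapped through LPD replicate 1, the lowest LPD liver. Sars2, for mitochondrial serine, lay at 4.19, 4.69 and 7.79 CPM in SPD and 5.61, 6.49 and 9.33 CPM in LPD livers (0.42 ± 0.16, adjusted p = 0.0460). SPD replicate 3 alone made its diets overlap. The call of Sars2 was lost without any 1 of 9 livers (SPD replicates 1, 2, 4, 5 and 6, LPD replicates 1, 2, 5 and 6), with an adjusted p of 0.0547 to 0.115.

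Iars2 and Lars2, the mitochondrial enzymes for isoleucine and leucine, fell slightly. Iars2, the most abundant of the mitochondrial set, went from 117, 121 and 136 CPM to 99.3, 110.2 and 121 CPM (-0.17 ± 0.06, adjusted p = 0.0259). Lars2 went from 35.4, 39.4 and 41.5 CPM to 31.7, 35.0 and 38.0 CPM (-0.15 ± 0.06, adjusted p = 0.0494). The diets overlapped for both. These calls were lost when single livers were left out: for Iars2 any of 4 (SPD replicates 2 and 4, LPD replicates 2 and 6; adjusted p 0.0570 to 0.0637) and for Lars2 any of 9 (SPD replicates 2, 4, 5 and 6, LPD replicates 1, 2, 4, 5 and 6; 0.0615 to 0.122). Of the exonic bases of Iars2, 22.9% are shared with Rab3gap2 on the opposite strand, whose log2 fold change was -0.14 ± 0.06 (adjusted p = 0.0982), so the value of Iars2 is uncertain as far as strand was not used in counting.

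The other 11 mitochondrial members did not pass the test. Ears2 (glutamate), Aars2 (alanine), Cars2 (cysteine) and Yars2 (tyrosine) had estimates of 0.18, 0.15, 0.12 and 0.11. Hars2 (histidine), Nars2 (asparagine), Wars2 (tryptophan), Tars2 (threonine) and Rars2 (arginine) lay between -0.06 and 0.05. Fars2 (phenylalanine) and Vars2 (valine) both had estimates of -0.16, with adjusted p of 0.0731 and 0.105. The adjusted p of Fars2 was 0.0400 without LPD replicate 1 and 0.0362 without LPD replicates 2 and 5. Of the exonic bases of Fars2, 8.7% are shared with Nrn1 on the opposite strand. Mean levels in SPD and LPD were 254 and 250 CPM for Nrn1, and 26.6 and 23.9 CPM for Fars2. Fars2 also shares 115 exonic bases on the opposite strand with Lyrm4, which rose (0.38 ± 0.10, adjusted p = 5.36e-03). The value of Fars2 is therefore uncertain as far as strand was not used in counting.

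Within each liver the ratio of CPM per kilobase was taken for 17 pairs of a cytosolic and a mitochondrial gene for the same amino acid. The mean log2 ratio was higher in LPD for 13 of 17 pairs. For 3 pairs every LPD liver had a higher ratio than every SPD liver, and for 0 pairs every one had a lower ratio. Of single tested genes 10.2% lay without overlap above and 9.73% below in LPD, and no such share was taken for ratios of other genes. Within these 3 pairs, Eprs, Farsb and Iars were called as risen and Pars2 and Iars2 as fallen in these same livers. The ratios are therefore no added support for those calls. Eprs over Pars2 went from 15.2 ± 1.93 to 36.1 ± 7.95, Farsb over Fars2 from 1.94 ± 0.117 to 2.80 ± 0.317, and Iars over Iars2 from 0.514 ± 0.0219 to 0.705 ± 0.0945. Methionine, serine, cysteine and histidine had lower mean log2 ratios in LPD, and for methionine and serine both genes of the pair rose. The glutamate and proline pairs share Eprs, and the pairs of Farsa and Farsb share Fars2. Fars2, Cars2, Iars2, Ears2, Mars1, Yars, Hars and Hars2 share exonic bases with a tested gene on the opposite strand. Ratios with any of these genes are uncertain as far as strand was not used in counting.

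**Figure D4:**
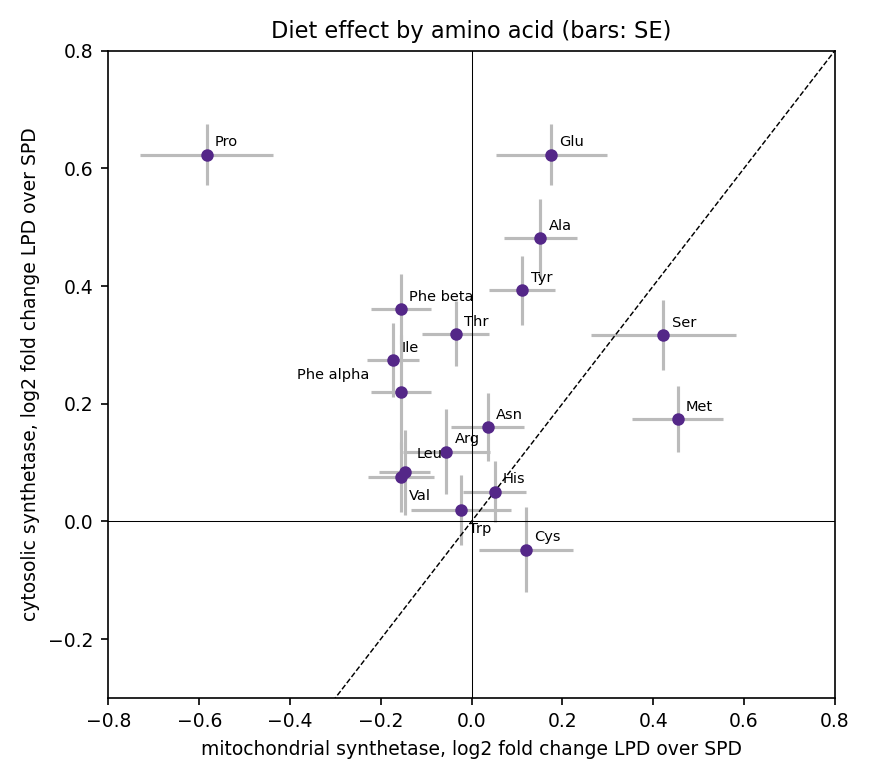
Log2 fold change (LPD over SPD) of the cytosolic synthetase (vertical) against that of the mitochondrial synthetase (horizontal) for 17 pairs by amino acid, with SE bars, and the dashed line where both are equal. Of the 17 pairs 13 had a higher ratio in LPD, and proline lies farthest from the line.

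Of 17 partner genes of the synthetases, 5 rose and 2 fell, a share near the 39.9% called over all tested genes. The 3 scaffold proteins of the multi-synthetase complex had log2 fold changes of -0.08 ± 0.07 (Aimp1), 0.22 ± 0.12 (Aimp2) and 0.26 ± 0.09 (Eef1e1), and Eef1e1 alone passed (adjusted p = 0.0382). The call of Eef1e1 was lost without any 1 of 5 livers (SPD replicates 3, 5 and 6, LPD replicates 2 and 6; adjusted p 0.0673 to 0.0830). Xpot, the exporter of tRNA from the nucleus, rose from a median of 125 to 143 CPM (0.21 ± 0.05, adjusted p = 5.89e-03, and 0.0529 with the SP1 and LP4 codes alone). Sepsecs, which converts serine-derived phosphoseryl-tRNA to selenocysteinyl-tRNA, had an estimate of 0.17 ± 0.06 (adjusted p = 0.0399), which did not pass without any 1 of 6 livers (SPD replicates 4, 5 and 6, LPD replicates 2, 5 and 6; 0.0510 to 0.0906).

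The charging reaction releases pyrophosphate, and the pyrophosphatases of cytosol and mitochondria went opposite ways. Ppa1, of the cytosol, lay at 101, 113 and 147 CPM in SPD and 119, 155 and 162 CPM in LPD livers, overlapping, and rose 1.26-fold (0.34 ± 0.09, adjusted p = 9.58e-03). With the SP1 and LP4 codes alone the estimate of Ppa1 was 0.27 and did not pass (adjusted p = 0.114). Ppa2, of mitochondria, lay at 51.8, 57.7 and 59.6 CPM in SPD and 41.2, 43.0 and 49.7 CPM in LPD livers. Its diets did not overlap, and it fell 1.28-fold (-0.35 ± 0.06, adjusted p = 2.09e-04).

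Mitochondria make glutaminyl-tRNA with an amidotransferase in place of a glutaminyl-tRNA synthetase. Its subunit Gatc rose (0.18 ± 0.06, adjusted p = 0.0277), and Qrsl1 and Gatb had estimates of 0.17 ± 0.15 and 0.01 ± 0.06. The call of Gatc was lost without any 1 of 5 livers (SPD replicates 1 and 6, LPD replicates 1, 3 and 5; adjusted p 0.0546 to 0.0639). Mtfmt, which formylates the initiator methionyl-tRNA of mitochondria, fell (-0.27 ± 0.10, adjusted p = 0.0498), and its call was lost without any 1 liver other than LPD replicate 6 (0.0525 to 0.0992). Trnt1, which adds the CCA end to tRNAs, the editing and related factors Dtd1, Dtd2, Aarsd1 and Prorsd1, and the selenocysteine pathway kinase Pstk did not pass.

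Of the genes listed as readouts of the amino acid response, Trib3, Asns and Ddit3 had larger fold changes than any synthetase. What set off the changes of these genes was not tested. Trib3, a pseudokinase induced by ATF4, went from 6.76, 7.27 and 8.68 CPM in SPD to 30.5, 51.7 and 89.6 CPM in LPD livers, a 7.47-fold rise (2.90 ± 0.22, adjusted p = 2.14e-07). Asns, asparagine synthetase, went from 2.66, 3.04 and 4.22 to 5.21, 10.7 and 14.8 CPM (1.70 ± 0.25, adjusted p = 8.19e-05), and Ddit3, the transcription factor CHOP, from 5.51, 6.76 and 10.2 to 10.9, 16.1 and 29.9 CPM (1.36 ± 0.26, adjusted p = 6.81e-04). None of the 3 overlapped between diets. Atf4 mRNA overlapped, at 55.7 to 69.5 CPM in SPD and 58.0 to 129 CPM in LPD, and rose 1.38-fold (0.46 ± 0.15, adjusted p = 0.0227). The call of Atf4 was lost by limma-voom with sample weights (adjusted p = 0.0681) and with the SP1 and LP4 codes alone (0.0931). Eif2ak4, the sensor kinase, had an estimate of -0.27 ± 0.09 (adjusted p = 0.0224), and did not pass without SPD replicate 1 (0.0548) or SPD replicate 4 (0.0501), with LPD replicate 1 counted as SPD (0.0995), without LPD replicates 2 and 5 (0.0804) or with the SP1 and LP4 codes alone (0.0806). The lowest LPD liver for Trib3 and Asns was replicate 5, for Ddit3 replicate 1 and for Atf4 replicate 3. LPD replicates 2, 4 and 6 were the 3 highest LPD livers for Trib3, Ddit3 and Atf4. They also had the highest averages over the 10 risen synthetases (0.41, 0.35 and 0.35), but replicate 3 came close at 0.33. LPD replicate 4, the highest for these 3 readouts, was the highest for 0 of the 10 synthetases. Whether readouts and synthetases went together over livers was not tested. For Asns replicates 3, 4 and 6 were the highest.

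Markers of other cell types had the following levels, with 19.2% of all tested genes fallen as the background of their counts. Summed macrophage markers lay at 446 to 513 CPM in SPD and 326 to 494 CPM in LPD livers, with 2 of 5 fallen (Cd68 and Lyz2). Stellate cell markers spanned 127 to 186 and 100.1 to 158 CPM with 2 of 5 fallen (Col1a1 and Pdgfrb), and endothelial markers 265 to 309 and 221 to 261 CPM with 2 of 5 fallen (Kdr and Cdh5). Of 5 bile duct markers Spp1 alone fell, from 151 to 442 CPM in SPD to 38.6 to 107 CPM in LPD livers. It made up most of their sum, which lay at 156 to 449 CPM in SPD and 43.1 to 117 CPM in LPD. Krt19 (0.20 ± 0.24), Krt7 (-0.01 ± 0.36), Epcam (0.23 ± 0.24) and Sox9 (-0.43 ± 0.20) did not pass. Krt19 and Krt7 were under 2 CPM in every liver. Of 5 lymphocyte markers 3 did not pass the filter on low counts, and the log2 fold changes were -0.35 ± 0.14 for Ptprc (adjusted p = 0.0625) and 0.28 ± 0.26 for Cd79a (adjusted p = 0.438). Hepatocyte markers had 2 of 5 risen (Apoa1 and Serpina1a) and summed to 71180 to 80270 CPM in SPD and 59728 to 84437 CPM in LPD livers. The part of cell composition in the synthetase changes was not tested.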

How the data were processed

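The deposited matrix holds expected counts per gene and library, unscaled by the authors, with annotation and gene length columns. The submitters' processing notes name TopHat, DESeq2 and the build mm10. For the counting program and its use of strand, the sources used here give nothing. Per the labels' protocols, RNA was extracted with TRIzol and libraries were made with a TruSeq kit, from 6 mice per diet.

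Counts were rounded and tested in R 4.3.3 with edgeR 4.0.16: filterByExpr (minimum count 10, minimum total 15), TMM scaling, and the quasi-likelihood F test of LPD against SPD, two-sided, with Benjamini-Hochberg adjustment over all 13768 tested genes and a threshold of 0.05. SE is the absolute log2 fold change over the square root of F. CPM use TMM-scaled totals, and CPM per kilobase the deposited length. Rows without a symbol (1542) held 0.214% of the counts and kept their place in the fit. Exonic overlaps come from GENCODE M21 on GRCm38, promoters from RefSeq. Scripts were tested on simulated data. Within each diet no 2 libraries were alike within sampling noise, and pairs across diets were not checked in this way.

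Members are named by the rule, and values of a few genes are not reported here. Partners, readouts and markers come from lists. Members and lists were chosen with earlier results of these data known. The alternatives were 2 other scalings, 2 other filters, DESeq2 1.42.0, limma-voom (limma 3.58.1), a replicate block, LPD replicate 1 counted as SPD, the SP1 and LP4 codes alone, LPD replicates 2 and 5 left out, and each library left out in turn.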

Additional observations from a re-analysis of the deposited data

Results flagged for a closer look

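In 3 of 76 groups of 6 livers (38 genes in 2 diets) 1 liver lay far from the other 5 by Dixon's gap test, where chance flags about 1 group in 20, or 3.8 of 76. Cars measured 25.9 CPM in SPD replicate 3, and 31.3 to 33.9 CPM in the other SPD livers. Mars1 measured 59.4 CPM in SPD replicate 1, and 50.7 to 54.0 CPM in the others. Sars2 measured 7.79 CPM in SPD replicate 3, and 4.19 to 4.80 CPM in the others. Their causes were not tested.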

How the results depend on the processing

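Of 16 called synthetases, 8 were called under all 22 alternatives (Eprs, Aars, Yars, Farsb, Tars, Sars, Iars and Mars2), and 0 changed direction. The cytosolic count of risen genes ranged from 7 to 11, with 0 fallen throughout. All tested genes gave 1827 risen and 1693 fallen with SP1 and LP4 libraries alone, where fewer samples entered. The mitochondrial set was less stable. Its risen count was 1 under upper quartile scaling, LPD replicate 1 counted as SPD, the SP1 and LP4 codes alone, and LPD replicates 2 and 5 left out, and 1 to 2 with single livers left out. Its fallen count was 1 with no filter, 2 without LPD replicates 2 and 5, 0 with SP1 and LP4 libraries alone, and 1 to 4 with single livers left out. Its median was 0.030 with SP1 and LP4 libraries alone and ranged from -0.053 to 0.037 with single livers left out. The cause was not tested.

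Replicate numbers did not pair the livers (r of same-numbered livers -0.054 to 0.097). With the replicate block, 8 cytosolic genes rose, and 1 mitochondrial gene rose and 1 fell.

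Signs turned only for genes not past the test. With the SP1 and LP4 codes alone Wars2 was 0.16, Cars 0.030, Gars 0.0027 and Gatb -0.0061. With LPD replicate 1 as SPD, Nars2 was -0.010, Rars2 0.042 and Gars 0.031. Without LPD replicates 2 and 5, Tars2 was 0.0052, Gars 0.052 and Gatb -0.028. Gars was 0.0047 and Gatb -0.0091 by limma-voom, and Gatb -0.0013 by upper quartile scaling. With single livers left out, Wars2 ranged from -0.063 to 0.037, Wars from -0.0091 to 0.051, Tars2 from -0.076 to 0.00025, Rars2 from -0.12 to 0.00062, Gars from -0.044 to 0.029 and Gatb from -0.012 to 0.038. At 33 to 93 counts per library Pars2 was the member with the fewest counts.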
